A study of Mus musculus with 16 samples.

Results

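Expression of the 4 mouse Fc gamma receptors (Fcgr1, Fcgr2b, Fcgr3 and Fcgr4) and of the signalling adaptors Fcer1g and Tyrobp was examined in lumbar dorsal root ganglia (DRG), 6 of the 36722 genes in the deposited table. The members were chosen by name as a receptor and adaptor family, with results of the fusion protein against vehicle already known, in which Fcgr1, Fcer1g and Tyrobp were higher. Values of that comparison are therefore given as a description with no test. The ganglia came from C57BL/6 mice, and RNA of levels L3 to L5 was sequenced after polyA selection. All animals had received 20 µl of 2% carrageenan, an irritant polysaccharide that inflames the paw, and 6 days later an intrathecal injection. The vehicle group received PBS (n = 5), the fusion protein group 1 µg of IL4-10 FP, a single molecule that joins interleukin 4 and interleukin 10 (n = 6), and the combination group 0.5 µg of each cytokine as separate molecules (n = 5). Ganglia were taken 6 hours after that injection. Every group carried the inflammation, and mice without carrageenan were not analysed here.

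Fc gamma receptors bind the constant part of IgG. Fcgr1 (the high-affinity receptor CD64), Fcgr3 (CD16) and Fcgr4 (CD16-2) are activating, and they signal through the common gamma chain Fcer1g, whose immunoreceptor tyrosine-based activation motif (ITAM) recruits the kinase Syk. Fcgr2b (CD32b) carries an inhibitory motif (ITIM) that recruits the phosphatase Inpp5d and dampens activating receptors on the same cell. Tyrobp (DAP12) is a second ITAM adaptor, which serves receptors such as Trem2 and not the Fc gamma receptors themselves. In nervous tissue these genes are known mainly from macrophages, microglia and infiltrating myeloid cells, and IgG immune complexes acting on Fc gamma receptors in the ganglion have been linked to pain.

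The genes lie in 3 places of the mouse genome (GRCm38). Fcgr2b (ENSMUSG00000026656, chromosome 1, 170958617 to 170976547), Fcgr4 (ENSMUSG00000059089, 171018920 to 171029761), Fcgr3 (ENSMUSG00000059498, 171051174 to 171064935) and Fcer1g (ENSMUSG00000058715, 171229572 to 171234365) neighbour each other on chromosome 1, with Fcgr4 on the plus strand and the others on the minus strand. Fcgr1 (ENSMUSG00000015947, minus strand) lies on chromosome 3 from 96282909 to 96293969, and Tyrobp (ENSMUSG00000030579, plus strand) on chromosome 7 from 30413760 to 30417585. Tyrobp had no entry among the promoters used here, although its fusion protein libraries also lay above all vehicle libraries. The start regions of Fcgr1, Fcgr4 and Fcer1g are shown because these 3 genes separated the fusion protein from vehicle libraries without overlap and their upstream windows are free of exons over most of their length. They are the RefSeq windows of build GRCm38.p6 on each gene's own strand, at chr3:96293970-96294219 (minus) for Fcgr1, chr1:171018676-171018919 (plus) for Fcgr4 and chr1:171234366-171234599 (minus) for Fcer1g. Capitals mark matches, on either strand, to the letters of the interferon-gamma-activated site (GAS, TTCNNNGAA), the core of the interferon-stimulated response element (ISRE, GAAA, any 2 bases, GAAA) and a core of the myeloid factor PU.1 (GAGGAA, which reads TTCCTC on the other strand).
Fcgr1: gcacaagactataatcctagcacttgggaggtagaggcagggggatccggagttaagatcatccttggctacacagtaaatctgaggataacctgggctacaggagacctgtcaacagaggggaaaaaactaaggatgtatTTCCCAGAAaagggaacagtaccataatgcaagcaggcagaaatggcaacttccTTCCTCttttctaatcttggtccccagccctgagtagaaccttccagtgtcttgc
Fcgr4: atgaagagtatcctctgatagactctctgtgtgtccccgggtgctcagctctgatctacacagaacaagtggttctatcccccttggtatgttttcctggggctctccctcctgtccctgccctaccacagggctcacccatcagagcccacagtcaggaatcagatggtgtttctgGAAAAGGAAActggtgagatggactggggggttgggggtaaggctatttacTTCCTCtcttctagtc
Fcer1g: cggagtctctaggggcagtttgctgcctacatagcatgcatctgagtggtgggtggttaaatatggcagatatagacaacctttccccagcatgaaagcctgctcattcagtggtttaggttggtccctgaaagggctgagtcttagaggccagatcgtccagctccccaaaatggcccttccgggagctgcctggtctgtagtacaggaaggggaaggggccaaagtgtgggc

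The Fcgr1 window held the GAS letters TTCCCAGAA at -109 to -101 from the start of the gene and a PU.1 core at -55 to -50. The Fcgr4 window held the ISRE core GAAAAGGAAA at -73 to -64 and a PU.1 core at -22 to -17. Fcer1g held none of the 3 in this window. The matches did not overlap each other. Of 32851 RefSeq promoters, 7.02% held the GAS letters, 2.98% the ISRE core and 23.25% the PU.1 core in the same 250 bases. A match describes letters, and binding was not measured. The windows of Fcgr2b and Fcgr3 overlap annotated exons and are not printed. Of these, both Fcgr3 entries held the PU.1 core, and Fcgr2b held none of the 3.

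Values are given on a log2 scale and as scaled values. The deposited values are variance-stabilised log2 values, and differences between groups (with the SE of limma) refer to that scale. Scaled values are the whole numbers that these log2 values decode to. They are not read counts, the sequencing depth is unknown, and a gene that was not detected has a scaled value of 1. Near that floor the log2 scale is compressed, and low genes differ more in their scaled values than their log2 differences show. Scaled totals ran from 16.7 M to 20.9 M per library. Markers of sensory neurons (Rbfox3, Tubb3, Calca and 6 others) summed to scaled values between 195600 and 309600 per library, so the tissue carried the markers of its label. Library 1 of the fusion protein group stood above the other 5 for Fcgr1, Fcgr3 and Fcer1g, and the members' differences are also given without it. In bulk tissue, more cells of a type and more RNA per cell cannot be told apart. All 6 members passed the filter on low values (a mean log2 value of at least 6.99), as did 13385 genes in all.

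Within every group the adaptors were the most abundant members per length of transcript. In vehicle the mean scaled value per kb was 246 for Fcer1g, 193 for Tyrobp, 138 for Fcgr3, 75.0 for Fcgr2b, 25.7 for Fcgr1 and 14.5 for Fcgr4. Neighbours in that order overlapped between libraries, with the exception of Fcgr2b and Fcgr1. In combination libraries the order of the first 4 was the same, from 362 for Fcer1g to 80.4 for Fcgr2b, followed by Fcgr4 (46.8) and Fcgr1 (26.3). There the exception was Fcgr3 (194), whose libraries lay above all those of Fcgr2b. In fusion protein libraries Fcer1g reached 848 per kb and Tyrobp 644, Fcgr3 268, Fcgr2b 161, Fcgr4 143 and Fcgr1 110, with overlap between all neighbours. Fcgr4, the least abundant member in vehicle, thus had a higher mean than Fcgr1 in both treated groups, although the ranges of both genes overlapped there. Within single libraries, Fcgr4 lay above Fcgr1 in 5 of 5 combination and 4 of 6 fusion protein libraries. In vehicle the order of neighbours held in 5 of 5 libraries, except for Fcer1g above Tyrobp (4 of 5).

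**Figure D1:**
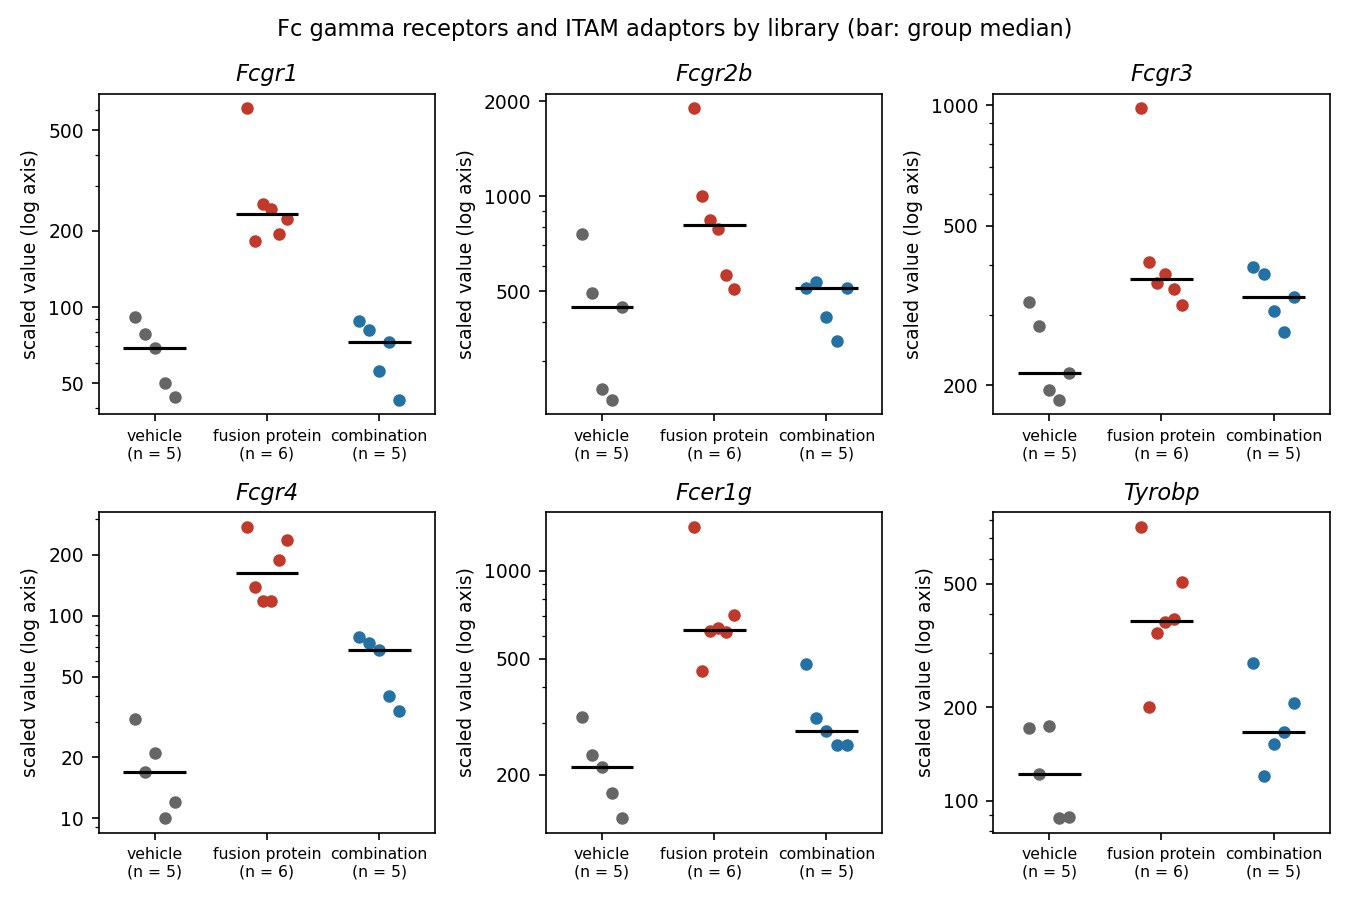
Scaled value (log axis) of each of the 6 genes in every library, by group, with a bar at the group median. Fcgr1 and Fcgr4 are higher in all 6 fusion protein libraries than in any other library, and library 1 of that group is the highest point in every panel.

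Against vehicle, fusion protein libraries had more transcript of all 6 genes. Fcgr1 had scaled values of 91, 78, 69, 50 and 44 in vehicle and of 612, 183, 256, 244, 195 and 223 with the fusion protein, in order of library number. Fcgr4 had 31, 17, 21, 10 and 12 in vehicle and 276, 139, 119, 119, 188 and 236 with the fusion protein. Neither gene overlapped between the groups, and the mean scaled value was 4.3 times that of vehicle for Fcgr1 and 9.86 times for Fcgr4. For the gamma chain Fcer1g, the vehicle libraries had 316, 233, 212, 173 and 142, and the fusion protein libraries 1419, 453, 620, 637, 615 and 704. For Tyrobp the vehicle libraries had 172, 122, 174, 88 and 89, and the fusion protein libraries 763, 201, 348, 376, 385 and 505. Both adaptors again separated the groups completely, with mean scaled values 3.45 and 3.33 times those of vehicle. The log2 differences were 1.18 ± 0.18 (SE) for Fcgr1, 1.42 ± 0.14 for Fcgr4, 1.34 ± 0.21 for Fcer1g and 1.15 ± 0.21 for Tyrobp.

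The inhibitory receptor Fcgr2b and the activating receptor Fcgr3 had smaller ratios and overlapping groups. Fcgr2b had 757, 493, 246, 227 and 447 in vehicle and 1902, 1000, 843, 785, 564 and 510 with the fusion protein, where vehicle library 1 lay above 2 of the 6 treated libraries. Fcgr3 had 323, 281, 194, 184 and 215 in vehicle and 983, 407, 359, 378, 347 and 317 with the fusion protein, where 1 treated library lay below vehicle library 1. The mean scaled values were 2.15 and 1.94 times those of vehicle, and the log2 differences 0.91 ± 0.29 and 0.65 ± 0.19. Without fusion protein library 1 the log2 differences of the 6 genes were 0.99 (Fcgr1), 0.70 (Fcgr2b), 0.45 (Fcgr3), 1.33 (Fcgr4), 1.15 (Fcer1g) and 1.00 (Tyrobp). All 6 members passed the threshold of the comparison by which they were selected on earlier results, against 12.0% of all tested genes that were higher and 13.7% that were lower, and nothing is read from that count. Fcgr2b and Fcgr3 share stretches of identical sequence: 9.58% of the distinct 50-base words of Fcgr3 transcripts also occur in Fcgr2b, so reads from these stretches could have been split or dropped, and both genes' values are uncertain to that extent. Fcgr2b also overlaps the opposite-strand gene Gm38204 over 155 of its 5790 exonic bases, and whether counting used strand is not stated in the sources used here.

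The comparison of the combination with vehicle asks whether the separate cytokines changed the same genes. The libraries of the vehicle group also entered the comparison by which the members were chosen, so this comparison is not independent of it. Fcgr4 was the only member that passed the test in the main model. Its scaled values were 79, 73, 68, 40 and 34 with the combination, all above the highest vehicle library (31), and the mean was 3.23 times that of vehicle. The log2 difference was 0.57 ± 0.15 (limma adjusted p = 0.0051). It was 1.67 as a difference of log2(scaled value + 1), a scale without that compression. With the split between lower and higher label numbers as a covariate it was 0.48 (adjusted p = 0.0688), and the labels do not say what that numbering stands for. All combination libraries had higher numbers, while most vehicle and most fusion protein libraries had lower ones. The combination and that numbering thus cannot be fully told apart.

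Fcgr1, which like Fcgr4 is an activating receptor, did not pass the test. Its combination libraries had 88, 81, 56, 73 and 43, nearly the range of vehicle, with a log2 difference of 0.02 ± 0.19 (adjusted p = 0.949) and a 95% interval from -0.39 to 0.43. Fcer1g had 480, 313, 282, 254 and 253, with a difference of 0.40 ± 0.22 (adjusted p = 0.174), and library 1 lay above the highest vehicle library. Tyrobp had 278, 120, 153, 167 and 207 with a difference of 0.32 ± 0.22 (adjusted p = 0.283), Fcgr3 395, 378, 306, 272 and 332 with 0.37 ± 0.20 (adjusted p = 0.171), and Fcgr2b 512, 537, 415, 349 and 514 with 0.16 ± 0.30 (adjusted p = 0.713). The Fcgr2b difference moved from 0.0095 without vehicle library 4 and 0.030 without vehicle library 3 to 0.35 without vehicle library 1, and did not pass in any of these. Each of these 3 overlapped the vehicle group. The calls of Fcgr3 and Fcer1g changed with fusion protein library 1, which enters through the shared estimate of spread. Without it the same differences gave limma adjusted p = 0.00906 for Fcgr3 and 0.0387 for Fcer1g. With that library kept, both also passed in the fit with the replicate block. Of all tested genes 24.2% rose and 12.3% fell in this comparison, so 1 of 6 members is not more than the background, and the median difference of the members was 0.34 beside 0.06 over all tested genes.

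The comparison of both treatments with each other asks whether linking the cytokines changed the outcome. Here too the groups differed in label number, so treatment and that numbering cannot be fully told apart. Of the members, 4 (Fcgr1, Fcgr4, Fcer1g and Tyrobp) were higher with the fusion protein than with the combination and 2 (Fcgr2b and Fcgr3) did not pass the test. Since the fusion protein libraries also served to choose the members, this is not independent support. Of all tested genes 7.35% were higher with the fusion protein and 22.2% were lower (984 and 2966 genes). These counts fell to 547 and 1452 without combination library 2, to 646 and 1850 without combination library 5 and to 694 and 1869 without fusion protein library 4, while 4 members passed in each case. The median difference was 0.84 for the members and -0.09 for all tested genes.

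Fcgr1 had the largest difference of the 6. All fusion protein libraries (183 to 612) lay above all combination libraries (43 to 88), the mean scaled values were 285.5 ± 162 (SD, n = 6) and 68.2 ± 18.5 (n = 5), and the log2 difference was 1.16 ± 0.18 (limma adjusted p = 0.00146). Fcgr4 likewise did not overlap, with 119 to 276 against 34 to 79, means of 179.5 ± 65.6 and 58.8 ± 20.4, and a difference of 0.85 ± 0.14 (adjusted p = 0.00146). The receptor with the highest affinity for IgG was thus near the vehicle level after the combination, whereas Fcgr4 lay between vehicle and fusion protein.

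Both adaptors also passed the test. Fcer1g differed by 0.94 ± 0.21 (adjusted p = 0.00819), with means of 741 ± 342 and 316 ± 94.7 and 5 of 6 fusion protein libraries above all combination libraries. Tyrobp differed by 0.83 ± 0.21 (adjusted p = 0.013), with means of 430 ± 190 and 185 ± 60.6 and again 5 of 6 libraries above. For each adaptor the exception was fusion protein library 2. Without fusion protein library 1 the differences were 0.97 for Fcgr1, 0.76 for Fcgr4, 0.76 for Fcer1g and 0.68 for Tyrobp, and all 4 still passed.

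For Fcgr2b the difference was 0.75 ± 0.29 (adjusted p = 0.0629), with a 95% interval from 0.12 to 1.38 before adjustment and 5 of 6 fusion protein libraries above all combination libraries. It passed without vehicle library 1 (adjusted p = 0.0459) and without fusion protein library 6 (0.0468). For Fcgr3 the difference was 0.28 ± 0.19 (adjusted p = 0.264), with an interval from -0.13 to 0.70 and 2 of 6 libraries above. Without fusion protein library 1 the difference was 0.54 for Fcgr2b (adjusted p = 0.0958) and 0.08 for Fcgr3 (adjusted p = 0.541). Among libraries with higher label numbers only, an alternative added after the data were seen (2 fusion protein and 5 combination libraries), the difference was 0.18 for Fcgr2b and -0.008 for Fcgr3. In the same libraries it was 0.92 for Fcgr1, 1.04 for Fcgr4, 0.87 for Fcer1g and 0.94 for Tyrobp.

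**Figure D2:**
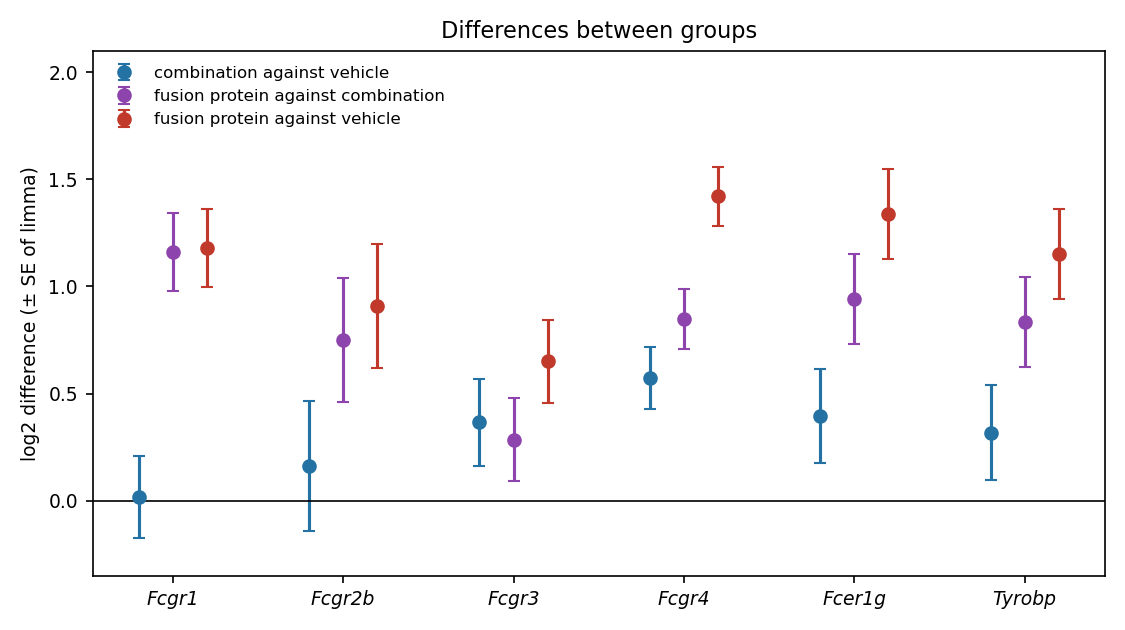
Log2 difference of each gene, with the SE of limma, in the 3 comparisons. Points are fitted differences. The combination point against vehicle is near 0 for Fcgr1 (0.02) and highest for Fcgr4 (0.57), while the fusion protein exceeds the combination by 1.16 for Fcgr1 and by 0.28 for Fcgr3.

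Members were also compared with each other within each library. The log2 value of Fcgr1 minus that of Fcgr3 was -1.06 ± 0.15 (SD, n = 5) in vehicle, -0.53 ± 0.18 (n = 6) with the fusion protein and -1.41 ± 0.19 (n = 5) with the combination. All 6 fusion protein libraries lay above every vehicle and every combination library, and 4 of 5 combination libraries lay below every vehicle library. Fcgr2b minus Fcgr3 was 0.57 ± 0.35 in vehicle, 0.82 ± 0.23 with the fusion protein and 0.36 ± 0.09 with the combination, again with all 6 fusion protein libraries above the combination. Against that, the mean of the 3 activating receptors minus the inhibitory receptor Fcgr2b overlapped between all groups on the log2 scale. It ran from -1.98 to -0.997 in vehicle, from -1.73 to -0.76 with the fusion protein and from -1.65 to -1.14 with the combination. These differences are descriptions, and those that involve Fcgr1 or Fcgr4 are compressed by the low levels of these genes. In scaled values, the fusion protein mean was 4.3 times that of vehicle for Fcgr1 and 9.86 times for Fcgr4. It was 1.94 times for Fcgr3 and 2.15 times for Fcgr2b. The overlap on the log2 scale thus does not show that the balance was unchanged.

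**Figure D3:**
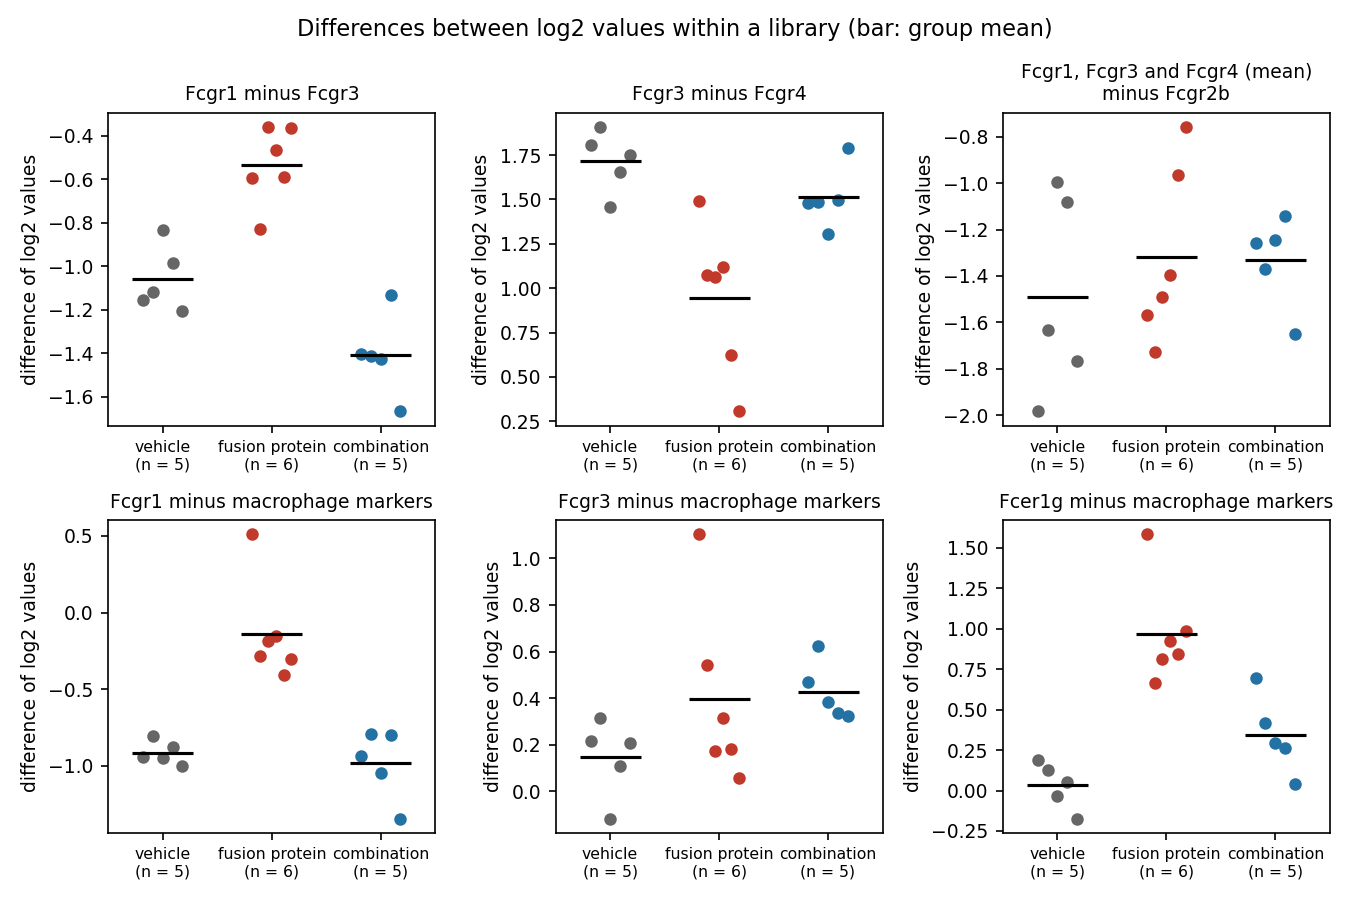
Differences in every library between log2 values of 2 members, between the mean of the 3 activating receptors and Fcgr2b, and (lower row) between Fcgr1, Fcgr3 or Fcer1g and the mean of 14 macrophage markers, with a bar at the group mean. Fcgr1 minus Fcgr3 separates the fusion protein libraries from both other groups. The activating receptors minus Fcgr2b overlap in all 3 groups on this log2 scale, which is compressed for low genes.

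Members varied together across libraries of a group, in part through fusion protein library 1, and not all pairs did so to the same degree. Over deviations of the 16 libraries from their group means, Pearson's r ran from 0.31 (Fcgr2b and Tyrobp) to 0.91 (Fcgr1 and Fcer1g). Without fusion protein library 1, Fcgr2b and Fcgr3 still had r = 0.89 and Fcgr1 and Fcer1g r = 0.80, while Fcgr2b and Tyrobp had r = -0.13. It was also low for Fcgr2b and Fcgr4 (-0.02), Fcgr3 and Tyrobp (0.07), Fcgr2b and Fcer1g (0.24) and Fcgr3 and Fcgr4 (0.26). By contrast, Fcer1g had r = 0.75 with Tyrobp and 0.65 with Fcgr4. The points of a pair share their libraries, and Fcgr2b and Fcgr3 also share sequence, so no p is given.

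Markers of cells that express these receptors also differed between both treatments. The mean log2 value of 14 macrophage markers was 8.31 in vehicle, 8.71 with the fusion protein and 8.40 with the combination. The fusion protein exceeded the combination by 0.32 (exact permutation test, two-sided, p = 0.00866, adjusted over 39 tests 0.0375), and 4 of the 14 rose while Cd163 fell. The shares over all tested genes were 7.35% higher and 22.2% lower. The summed scaled value of the list ran from 3181 to 5373 in vehicle, 4805 to 9229 with the fusion protein and 4188 to 5503 with the combination. For 7 monocyte markers the difference was larger, 0.87 (exact permutation p = 0.00433, adjusted 0.0338), and 5 of 7 rose, among them Plac8 by 1.27 ± 0.17 and the chemokine receptor Ccr2 by 1.20 ± 0.23. The monocyte sum ran from 991 to 1713 in vehicle, 2250 to 8486 with the fusion protein and 1426 to 1905 with the combination. Against vehicle, the fusion protein libraries were higher by 0.40 for the macrophage list and by 1.12 for the monocyte list, given here as a description. Without fusion protein library 1, the differences between both treatments were 0.26 for the macrophage list (exact permutation p = 0.0159) and 0.70 for the monocyte list (exact permutation p = 0.00794), both unadjusted. No marker of either list was at the level of undetected genes in all libraries.

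In the combination against vehicle, where only Fcgr4 passed in the main model, neither list passed: macrophage markers differed by 0.09 (exact permutation p = 0.389, adjusted 0.607) and monocyte markers by 0.25 (0.103, adjusted 0.224). There 2 of 14 macrophage markers rose, not more than the 24.2% of all tested genes. They were Mrc1 (0.47 ± 0.15) and Cd163 (0.33 ± 0.11), both scavenger receptors of resident perivascular macrophages. The Mrc1 call ended without vehicle library 3 or 4 or combination library 5 (adjusted p up to 0.0677), and the Cd163 call without vehicle library 2, 3 or 4 or combination library 5 (up to 0.0828). Of 10 tested neutrophil markers 2 rose with the fusion protein against the combination, beside 7.35% of all tested genes. The list differed by 0.26 (exact permutation p = 0.303, adjusted 0.537). The single tested marker of natural killer and T cells was Gzma, a granzyme, which rose by 0.69 ± 0.11, and the whole list of 9 differed by 0.39 (exact permutation p = 0.00866, adjusted 0.0375). Mast cell markers, from cells that also carry Fcgr3 and Fcer1g, differed by 0.07 between both treatments (exact permutation p = 0.333, adjusted 0.565). With the combination they were 0.22 above vehicle (0.0159, adjusted 0.0563). Satellite glia markers were 0.44 lower with the fusion protein than with the combination (exact permutation p = 0.00433, adjusted 0.0338). They were 0.37 higher with the combination than in vehicle (exact permutation p = 0.0159, adjusted 0.0563). The fusion protein differed from vehicle by -0.07 for this list. The part of these cell types in the members' differences was not tested.

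The members were set against both lists in the same library, as a description. Relative to the macrophage mean, the fusion protein exceeded the combination by 0.84 for Fcgr1, 0.63 for Fcer1g, 0.53 for Fcgr4, 0.52 for Tyrobp and 0.43 for Fcgr2b, and Fcgr3 differed by -0.03. Of that list, Cd163 was lower with the fusion protein than with the combination (difference -0.44 ± 0.11). Relative to the monocyte mean, an alternative added after the data were seen, the difference was 0.29 for Fcgr1 (4 of 6 libraries above all combination libraries), 0.07 for Fcer1g, -0.02 for Fcgr4, -0.04 for Tyrobp, -0.12 for Fcgr2b and -0.59 for Fcgr3 (5 of 6 libraries below). Between both treatments the monocyte list differed by 0.87, beside a median of 0.84 for the members. In the combination against vehicle, Fcgr4 was 0.49 higher relative to the macrophage mean and 0.33 higher relative to the monocyte mean, with 5 and 4 of 5 libraries above vehicle.

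The ligand side was described by 13 immunoglobulin chain genes, of which 5 were tested. Ighg2c, the heavy chain of an IgG subclass that Fcgr1 and Fcgr4 bind, rose with the combination by 0.38 ± 0.09 (adjusted p = 0.00379), from 115 ± 12.4 (SD, n = 5) to 179 ± 24.2 (n = 5). It differed between both treatments by -0.11 ± 0.09 (adjusted p = 0.338). By limma, 0 of the 5 chains passed for the fusion protein against the combination, and 0 had an unadjusted p under 0.05. The shares over all tested genes were 7.35% higher and 22.2% lower. Of 3 tested other Fc receptors, the neonatal receptor Fcgrt did not pass in either comparison. Fcrls, a receptor-like gene of resident microglia and macrophages, rose with the combination by 0.44 ± 0.11 (adjusted p = 0.00375) and was 0.37 lower with the fusion protein than with the combination (difference -0.37 ± 0.10, adjusted p = 0.0159). Trim21, a cytosolic receptor for antibody, was 0.41 ± 0.13 higher with the fusion protein (adjusted p = 0.0279), a call that ended without fusion protein library 4 or combination library 2, 4 or 5 (adjusted p up to 0.0731).

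Of 18 listed partner receptors that use Fcer1g or Tyrobp, 10 lay below the filter on low values. Of the 8 tested, 5 rose, 0 fell and 3 did not pass between both treatments, with a median of 0.77. The shares over all tested genes were 7.35% higher and 22.2% lower. Clec4e (Mincle), a lectin that signals through Fcer1g and recognises dead cells and mycobacterial glycolipid, rose from 28.2 ± 3.42 to 214 ± 183, a difference of 1.28 ± 0.22 (adjusted p = 0.00315), and of 1.03 without fusion protein library 1. Clec4d, its partner lectin, rose by 1.20 ± 0.27, and the integrin chains Itgam and Itgb2 of complement receptor 3 rose by 1.15 ± 0.29 and 1.06 ± 0.23. In the combination against vehicle 0 of the 8 passed in limma, while 24.2% of all tested genes rose and 12.3% fell. The median of the 8 was 0.05, and 0 had an unadjusted p under 0.05. With the label number split as a covariate, 2 of the 8 passed between both treatments. Of 4 tested adaptors of other receptors, Nfam1, an ITAM receptor of leukocytes, rose by 0.46 ± 0.14 with the fusion protein against the combination. Cd79a, the B cell receptor chain, fell by 0.25 on the log2 scale with the combination against vehicle (adjusted p = 0.0437). This call ended when any of 9 single libraries was left out: vehicle 1, 2 or 3, fusion protein 3 or 4, or combination 1, 2, 3 or 4 (adjusted p up to 0.141). The call for Nfam1 ended without combination library 2 or 5 (adjusted p up to 0.064).

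Downstream of the ITAM, 12 of 26 tested signalling genes were higher and 3 lower with the fusion protein than with the combination. Their median was 0.27, and the shares over all tested genes were 7.35% higher and 22.2% lower. Pik3ap1, which couples receptors to phosphoinositide 3-kinase, rose by 0.60 ± 0.09 (adjusted p = 0.000613). Pik3r5, a regulatory subunit of another phosphoinositide 3-kinase, rose by 0.43 ± 0.09. Syk itself, named after its values were seen, differed by 0.75 ± 0.26 (adjusted p = 0.0439). That call ended when any of 9 single libraries was left out: vehicle 2, fusion protein 3 to 6, or combination 2 to 5 (adjusted p up to 0.104). Against vehicle, Syk differed by 0.34 with the fusion protein and by -0.41 with the combination (limma adjusted p = 0.26 for the combination). In the combination against vehicle 0 rose in limma (1 at an unadjusted p under 0.05) and 2 fell. These counts are not more than the 24.2% and 12.3% of all tested genes. Among the genes that fell was the ubiquitous kinase Src, from 608 ± 50.9 to 422 ± 45.9. Src was near the same level with the fusion protein (433 ± 52.6). The count of 15 genes between both treatments rested in part on combination library 2, without which 7 passed, and 7 passed with the label number covariate.

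Genes of the inhibitory arm were described next. Of 19 tested genes listed as ITIM receptors and phosphatases, 9 rose, 0 fell and 10 did not pass with the fusion protein against the combination. Their median was 0.31, and the shares over all tested genes were 7.35% higher and 22.2% lower. Pirb, an inhibitory receptor for MHC class I, rose by 0.96 ± 0.21 (adjusted p = 0.00717) and the adaptor Dok2 by 0.57 ± 0.11. Lilr4b, which is on the list although its product carries no ITIM, rose by 1.19 ± 0.25. Inpp5d, the phosphatase that Fcgr2b recruits, named after its values were seen, was 0.57 higher with the fusion protein than with the combination. That call ended without combination library 2 (adjusted p = 0.0544). Against vehicle, Inpp5d differed by 0.31 with the fusion protein and by -0.26 with the combination (limma adjusted p = 0.256 for the combination). Without combination library 2, 5 of the 19 passed, and 3 with the label number covariate. In the combination against vehicle 2 of the 19 rose and 1 fell, not more than the 24.2% and 12.3% of all tested genes. Clec4a2, an inhibitory lectin, was the named gene of this group with a rise there, by 0.50 ± 0.11 (adjusted p = 0.0017). Its scaled value was 30.0 ± 7.11 in vehicle, 73.8 ± 28.4 with the combination and 80.7 ± 19.6 with the fusion protein.

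Of 17 tested genes of the phagocyte oxidase and particle uptake, 10 rose and 1 fell with the fusion protein against the combination. Their median was 0.44, and the shares over all tested genes were 7.35% higher and 22.2% lower. The scavenger receptor Msr1 rose by 1.19 ± 0.16 (adjusted p = 0.00044), from 73.2 ± 14.0 to 305 ± 149, and the oxidase subunit Ncf4 by 0.89 ± 0.18. Axl and Mertk, related receptors for the uptake of dead cells, differed in opposite directions. Axl was 0.40 ± 0.08 higher and Mertk fell by 0.40 on the log2 scale (adjusted p = 0.00368 and 0.00716). Against vehicle the combination had 1 gene higher and 1 lower in this list, not more than the 24.2% and 12.3% of all tested genes. Axl was the lower gene, with a difference of -0.22 ± 0.08 (adjusted p = 0.0373). The Axl call ended without vehicle library 1, 2 or 3 or combination library 3, 4 or 5 (adjusted p up to 0.0907).

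The list of 21 regulators of Fc receptor genes holds transcription factors, cytokine receptors, Janus kinases and the complement receptor C5ar1. Of these, 11 rose, 1 fell (the kinase Jak1) and 9 did not pass with the fusion protein against the combination. Their median was 0.36, and the shares over all tested genes were 7.35% higher and 22.2% lower. Irf9, the DNA-binding subunit of the interferon-activated complex at the ISRE, rose by 0.73 ± 0.11 (adjusted p = 0.000892). The interleukin 10 receptor chain Il10ra rose by 0.41 ± 0.10, from 102 ± 25.2 to 167 ± 30.3. The next genes are named after their values were seen. Spi1, which encodes PU.1, rose by 0.65 ± 0.16 and the interleukin 4 receptor chain Il4ra by 0.80 ± 0.16, while Stat6, the main transducer of interleukin 4, differed by 0.01 ± 0.06 (adjusted p = 0.946). In the combination against vehicle 2 rose and 1 fell, not more than the 24.2% and 12.3% of all tested genes. The interferon gamma receptor chain Ifngr1 rose by 0.21 ± 0.07 (adjusted p = 0.0198).

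**Figure D4:**
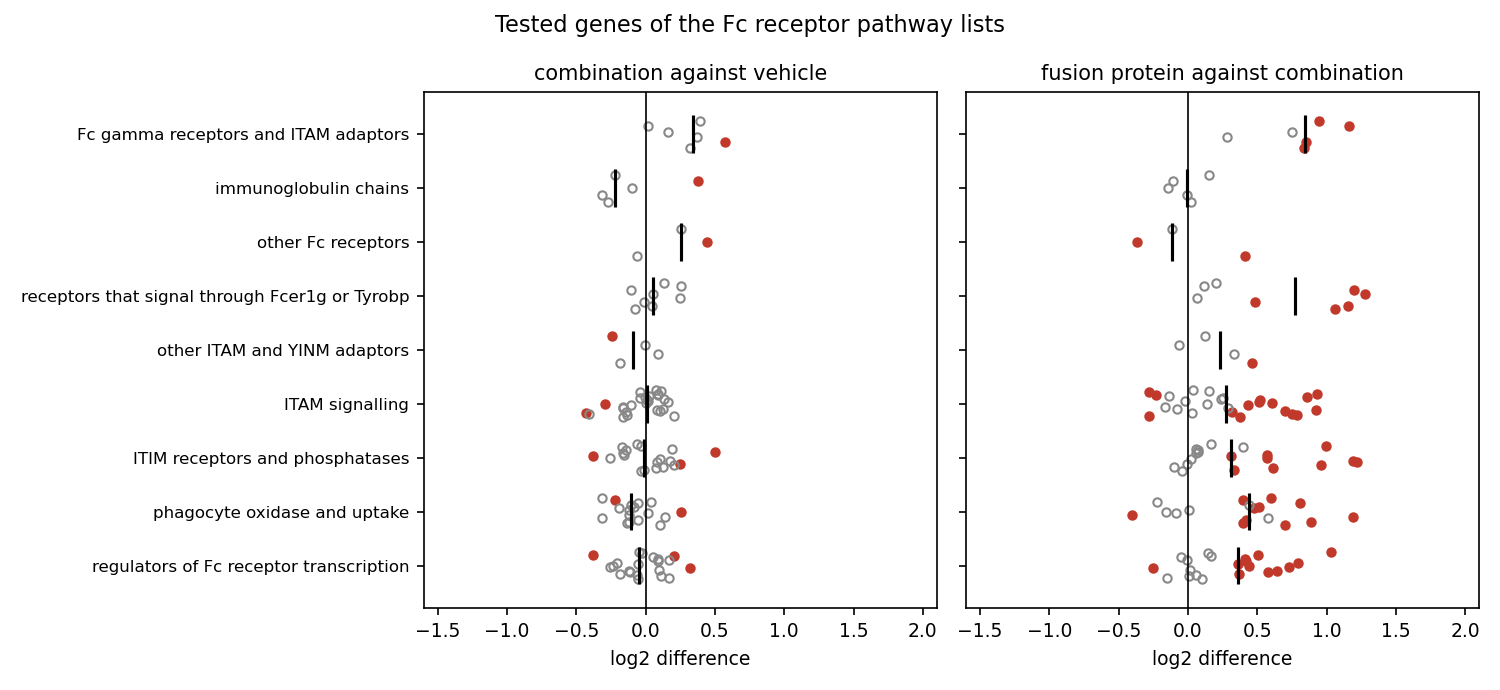
Log2 difference of each tested gene of the members and of the pathway lists in the combination against vehicle (left) and the fusion protein against the combination (right). Filled points passed a limma adjusted p under 0.05, open points did not, and bars mark list medians, such as 0.01 for ITAM signalling on the left and 0.27 on the right.

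Outside the family, the genes whose pattern was most like the mean of the 6 standardised members over the 16 libraries were the chemokine receptor Ccr1 (Pearson's r = 0.97), the leukocyte tetraspanin Cd53 (0.97), Pirb (0.96) and Ms4a6c (0.96), followed by Srgn, Msr1, Ms4a6d and Ctss. When only deviations from the group means were used, Ccr1 (0.94), the TNF receptor Tnfrsf1b (0.94), Cd53 (0.94), Sla, Cxcr2, Itgam, Nckap1l and Msr1 led. Without fusion protein library 1 the 8 genes of that second ranking had r between 0.72 and 0.83. Ccr1 rose by 1.41 ± 0.32 with the fusion protein against the combination (adjusted p = 0.00884), from a mean scaled value of 105 to 527, and its combination and vehicle means were 105 and 78.0. The points share their libraries, and the ranking is a description.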

How the data were processed

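Per the submitters' processing notes, the authors used FastQC, STAR, HTSeq and DESeq2 with build GRCm38; versions, strand setting and the scaling step are not given in the sources used here. The deposited values are variance-stabilised on a log2 scale. The squared distance between the antilog of a value and that of the lowest value (5.99), divided by the antilog of the value, gave whole numbers within 0.01 for 100% of values, called scaled values here. GC content was deposited by the authors in percent, per the file headers. The p-value columns the authors deposited name no comparison and were not used.

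The 13385 genes with a mean at least 1 above the lowest value (scaled value 31.8) were tested in 1 limma model of all 16 libraries (limma 3.58.1, R 4.3.3, eBayes with trend and robust), two-sided, adjusted by Benjamini-Hochberg over all tested genes, threshold 0.05. The steps were tested on simulated data. Marker lists were compared with exact permutation tests (SciPy 1.17.1). Intervals are 95% intervals with 13 residual degrees of freedom. Exon lengths and coordinates came from GENCODE for GRCm38, and promoters from RefSeq.

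The labels do not say that samples came from separate mice, so p-values measure spread between these samples. Members, gene lists and tests were chosen with earlier results of these data known. Named genes were the members, up to 4 genes per pathway list with the lowest p past the threshold in any comparison, and the 8 genes most like the members by either correlation; others are said to be named after their values were seen, and some genes that the rule names are not reported here. A planned search of protein sequences for signalling motifs was not run. Alternatives were other filters, normalizations, eBayes settings, weights, covariates, thresholds, the replicate block and the omission of each library. Added after seeing the data were fits by label number (up to 8, from 12) and without fusion protein 1 and vehicle 1, marker lists without fusion protein 1, members relative to monocyte markers, and named list genes with each library left out.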

Additional observations from a re-analysis of the deposited data

Results flagged for a closer look

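Fusion protein library 1 lay apart from the other 5 of its group for 3 members. Its log2 value was 9.52 for Fcgr1, 10.11 for Fcgr3 and 10.59 for Fcer1g, and its gap to the next library took 0.749, 0.795 and 0.631 of the group's range, above Dixon's 95% critical value for 6 samples. Of 24 groups checked 3 were so marked, all in this library, and chance marks about 1 in 20 groups.

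The effect of the fusion protein against vehicle exceeded that of the combination by 1.16 for Fcgr1, 0.85 for Fcgr4, 0.94 for Fcer1g and 0.83 for Tyrobp on the log2 scale. These are the differences between both treatments in the same model (limma adjusted p = 0.00146, 0.00146, 0.00819 and 0.013), since the shared vehicle group cancels. They repeat the comparison given above and are not a separate finding. The fusion protein libraries also served to choose the members, so this is not independent support.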

How the results depend on the processing

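Of 362 alternative values for the members' differences in the combination against vehicle and the fusion protein against the combination, 6 changed sign. They concern Fcgr1 in the combination against vehicle, which was -0.035 with array weights and ran from -0.040 to 0.086 when each library was left out, and Fcgr3 between both treatments, which was -0.0080 in libraries numbered from 12 alone. The count of members called in the combination against vehicle was 0 under the stricter filter (which tests 4 members) and with the late label number as covariate, 2 with only the groups compared, 3 with the replicate block, 3 without fusion protein 1 and vehicle 1 together, and 1 to 3 when each library was left out (3 without fusion protein 1). Between both treatments it was 2 under the stricter filter and 4 to 5 when each library was left out. For the fusion protein against vehicle, whose results chose the members, it was 3 in libraries numbered up to 8 alone and 4 to 6 when each library was left out, which says nothing of stability. For changes with the label number and with fusion protein 1, the cause was not tested.

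Whether the replicate numbers pair the samples was not settled. Of 15 same-numbered pairs, 7 had a correlation of deviations over 0.1 (range -0.196 to 0.598). Of 15 libraries, 6 correlated best with a library of their own number, and no chance level was computed. With the replicate block, Fcgr3 (adjusted p = 0.0313) and Fcer1g (0.0182) passed in the combination against vehicle, and Fcgr2b between both treatments (0.00955). Removal of trends with GC content and length moved the median of all genes to 0.20 in the combination against vehicle (6713 higher and 298 lower, against 3240 and 1651) and to 0.19 in the fusion protein against vehicle (6999 and 223, against 1610 and 1840). It gave 640 and 691 between both treatments, and quantile normalization 975 and 1388, against 984 and 2966. The trend removal centred GC content and length over the genes of the whole table, not over the tested genes. It can therefore shift each library as a whole, and the part of such a shift in these medians and counts was not tested. The same members passed in each comparison under the trend removal and under quantile normalization. The unknown depth limits statements on weakly expressed genes such as Fcgr4 in vehicle.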
